A study of Mus musculus with 6 samples.

Results

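Markers of layer 5 projection neurons were followed in ribosome-bound RNA of S100a10-expressing cells from the mouse cerebral cortex. The list held 9 genes, namely Etv1, Fezf2, Bcl11b, Crym, Pcp4, Tcerg1l, Bcl6, Ldb2 and Deptor, and its members were all probe sets that the platform annotation assigns to 1 of these symbols alone. This gave 20 probe sets of 8 genes, out of 45037 probe sets and 18193 singly named genes in the series. Etv1, an ETS-family transcription factor gene, had only 3 probe sets, all annotated jointly to it and to Gm5454, so it was not measured on its own and no value is given for it.

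Layer 5 neurons fall into classes by where their axons go. Intratelencephalic neurons connect to other cortex and to the striatum, pyramidal tract neurons reach the brainstem and spinal cord, and near-projecting neurons stay close by. Fezf2 and Bcl11b are known for directing the pyramidal tract fate during development, and several of the other genes are used to mark layer 5 cells in the adult cortex. S100a10 encodes p11, a small adaptor protein tied to the response to antidepressants, and its promoter is used to reach a population of layer 5 cells.

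In the S100a10 bacTRAP line ES691, a tagged ribosomal protein is made where the control region of S100a10 on a bacterial artificial chromosome is active, and translating ribosome affinity purification (TRAP) recovers the RNA on those ribosomes. The fluoxetine group had 3 arrays from mice that drank 0.167 mg/ml of this serotonin reuptake inhibitor in 1% saccharine, and the vehicle group had 3 arrays from mice that drank 1% saccharine alone, in both cases for 15 to 18 days. All mice carried the same transgene and had been crossed from FVB onto C57BL/6 for 3 to 5 generations. The sources used here give neither age, sex nor the number of animals behind a sample, and p-values therefore cover the spread between these samples only. The submitters state that the line also labels some non-neuronal cells. In ribosome-bound RNA of a mixed population, fewer labelled cells and less RNA per cell cannot be told apart.

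Values are GCRMA-normalized array intensities on a linear scale, compared after taking log2. The median intensity of an array was 47.3 to 48.6, and pairs of arrays correlated at 0.993 to 0.997 in log2 across probe sets. The test was limited to the 22326 probe sets that averaged 50 or more (geometric mean of all 6 arrays). Intensities depend on each probe set's own affinity as well as on RNA, so levels are compared between arrays and not between genes. The driver gene S100a10 stood at 15.08 ± 0.09 in fluoxetine arrays and 15.15 ± 0.07 in vehicle arrays in log2 intensity (SD, n = 3 each).

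All 8 measured genes had at least 1 probe set above the level of 50, as did 67.3% of all singly named genes. Of the 20 probe sets, 16 were above it, each of them on all 6 arrays. The other 4 were 1 of Tcerg1l, 1 of Bcl6 and 2 of Deptor, genes that each had a brighter probe set. Among 18 further layer 5 genes, 15 of the 17 with a probe set of their own were above the level, and Diaph3 and Chrna2 were below it. Of the markers of general and excitatory neurons, 7 of 7 were above it, among them the vesicular glutamate transporter gene Slc17a7. Markers of other cells were above it as well, with 7 of 8 genes of upper layers and 8 of 10 of layer 6. So were 9 of 9 genes of inhibitory neurons, 8 of 8 of astrocytes and 4 of 5 of oligodendrocytes. The astrocyte gene Gfap passed only through its fluoxetine values. The series holds no arrays of whole cortex or unbound RNA, so enrichment of the layer 5 genes in the purified fraction was not measured.

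The comparison between fluoxetine and vehicle asks whether prolonged treatment altered translated RNA in these cells. None of the 16 tested layer 5 marker probe sets passed in limma (Benjamini-Hochberg adjusted p under 0.05), and neither did any other tested probe set (0%). None had an unadjusted p under 0.05, against 2.52% of all tested probe sets. In none of the 16 did the 2 groups separate without overlap, against 8.05% of all tested. Of the 16, 7 lay below 0 and 9 above, beside 66.3% of all tested probe sets below 0. Every tested probe set of Deptor and Ldb2 lay above 0, and probe sets of the same gene are not separate members. By gene, 5 of 8 (62.5%) lay below 0. The brightest probe sets of Fezf2, Bcl11b, Crym, Pcp4 and Tcerg1l lay below 0 and those of Bcl6, Ldb2 and Deptor above it. The median over the 8 genes was −0.03 in log2, beside −0.06 over 12248 tested genes, of which 68.5% lay below 0. The count of 5 genes below 0 depended on the scaling: 2 of 8 lay below 0 under quantile normalization, and 2 of 8 when the arrays were aligned on their medians (the median shift). Under those scalings 50.8% and 50.6% of all tested genes and 50.2% and 49.2% of all tested probe sets lay below 0, and the median over all genes was −0.0023 and −0.0022. Without fluoxetine replicate 1, 2 of 8 lay below 0.

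**Figure D1:**
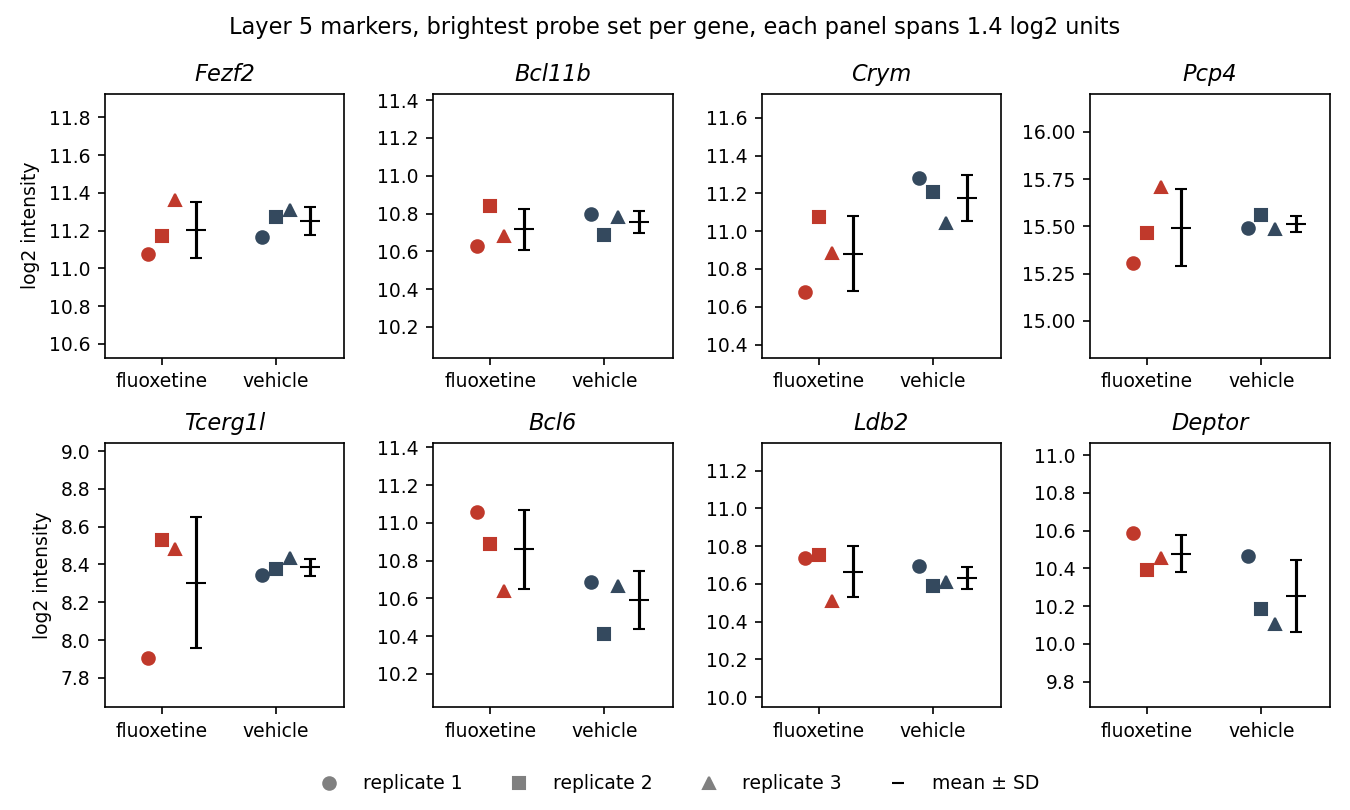
Log2 intensity (vertical axis) of the brightest probe set of each of the 8 layer 5 marker genes on the 3 fluoxetine arrays (red, left) and the 3 vehicle arrays (grey, right). Symbols mark the replicate number, and bars give the mean ± SD. The groups overlap in every panel, with the widest spread for Tcerg1l on the fluoxetine arrays.

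Fezf2, a zinc finger transcription factor that selects the subcerebral fate of layer 5 neurons, had intensities of 2156, 2308 and 2633 with fluoxetine and 2300, 2477 and 2536 with vehicle. The fluoxetine arrays held both the lowest and the highest value. The difference, fluoxetine minus vehicle, was −0.05 ± 0.12 in log2 (SE, 95% interval −0.33 to 0.24, limma adjusted p = 0.999). Quantile normalization gave 0.03 and the median shift 0.01, so its sign was not fixed.

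Bcl11b, also known as Ctip2, is a zinc finger factor that acts after Fezf2 in corticospinal neurons and is also made in striatal neurons. Its brightest probe set had intensities of 1582, 1833 and 1639 with fluoxetine and 1779, 1648 and 1762 with vehicle. The fluoxetine values again enclosed those of vehicle, and the difference was −0.04 ± 0.11 in log2 (SE). After quantile normalization it was 0.04. Of its 3 other tested probe sets, 2 differed by 0.01 and −0.03. The dimmest one read 60.9, 98.5 and 64.0 with fluoxetine and 83.0, 81.3 and 100.1 with vehicle, a difference of −0.27 ± 0.20 (SE). It was −0.49 without fluoxetine replicate 2 (unadjusted p = 0.0133, adjusted p = 0.908 in limma) and −0.14 without fluoxetine replicate 1. That probe set was close to the level of 50 and had the widest interval bound of the 16, at −0.75. Over the 6 arrays, pairwise Pearson correlations among the Bcl11b probe sets ran from −0.663 to 0.877.

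Bcl6 encodes a zinc finger repressor that promotes the exit of cortical progenitors into neurons. Its intensities were 2127, 1892 and 1592 with fluoxetine and 1650, 1364 and 1626 with vehicle. Fluoxetine replicates 1 and 2 lay above all vehicle arrays and fluoxetine replicate 3 lay among them. The difference was 0.27 ± 0.15 in log2 (SE, 95% interval −0.08 to 0.62), a fold of 1.21, with an unadjusted p of 0.113 in limma. Without fluoxetine replicate 1 it was 0.17, and without fluoxetine replicate 3 it was 0.38 (unadjusted p = 0.0431, adjusted p = 0.989 in limma). Quantile normalization gave 0.35 and the median shift 0.33. The second Bcl6 probe set read 4.59 to 5.00 with fluoxetine and 4.60 to 5.12 with vehicle, far below the filter, and gave no usable level.

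Ldb2 encodes a cofactor that binds LIM-domain transcription factors. Its brightest probe set read 1708, 1723 and 1456 with fluoxetine and 1658, 1539 and 1562 with vehicle. The difference was 0.03 ± 0.12 in log2 (SE, 95% interval −0.24 to 0.31), and those of its 2 other probe sets were 0.00 and 0.07. All 3 turned sign in at least 1 of the other fits.

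Crym, whose product mu-crystallin binds thyroid hormone in the cytosol, lay furthest below 0 among the brightest probe sets. It had intensities of 1638.5, 2160.1 and 1893 with fluoxetine and 2493, 2361 and 2113 with vehicle. Fluoxetine replicates 1 and 3 were under every vehicle array, and fluoxetine replicate 2 lay between vehicle replicates 3 and 2. The difference was −0.30 ± 0.14 in log2 (SE, 95% interval −0.63 to 0.03), a fold of 0.814, with an unadjusted p of 0.0721 and an adjusted p of 0.999 in limma. Its sign held in all 16 fits, where the difference ran from −0.40 to −0.20. The fits with another filter, the replicate block or the trend and robust variance cannot change the difference, so the sign was fixed there. The lowest unadjusted p among the 16 fits, 0.0281 in limma without fluoxetine replicate 2, went with an adjusted p of 0.908. Without fluoxetine replicate 1 the difference was −0.20.

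Pcp4, a small calmodulin-binding protein gene that is also used in Purkinje cells and striatum, read 40436, 45260.0 and 53612 with fluoxetine and 46096, 48377 and 45929 with vehicle. The 3 vehicle arrays lay close together (SD 0.04 in log2) and the fluoxetine arrays on both sides of them (SD 0.20). The difference was −0.02 ± 0.13 (SE), with 0.03 under quantile normalization and 0.04 under the median shift.

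Tcerg1l had 1 probe set on each side of the filter. The brighter one read 239, 369 and 357 with fluoxetine and 325, 332.5 and 346 with vehicle. Fluoxetine replicate 1 was the lowest array and the other 2 fluoxetine arrays were the highest. The difference was −0.08 ± 0.18 in log2 (SE), and 0.12 without fluoxetine replicate 1. The dimmer probe set read 36.4, 36.6 and 28.5 with fluoxetine and 53.2, 40.6 and 43.3 with vehicle. Its groups did not overlap, which held for 1 of the 20 probe sets and for 22.8% of all probe sets when no filter was applied. In the fit without a filter, over 45037 probe sets, it differed by −0.43 ± 0.15 (SE), with an unadjusted p of 0.0306 and an adjusted p of 0.742 in limma. The brighter probe set of the same gene did not show that separation.

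Deptor encodes an inhibitor of the growth-controlling kinase mTOR and had the most probe sets, 6, of which 4 were tested. The brightest read 1539, 1345 and 1402.5 with fluoxetine and 1415, 1164 and 1102 with vehicle. Only vehicle replicate 1 reached into the fluoxetine range. Its difference was 0.23 ± 0.14 in log2 (SE, 95% interval −0.09 to 0.54, unadjusted p = 0.138 in limma). A further probe set read 893, 808 and 827 with fluoxetine and 681, 810.5 and 562 with vehicle, so that vehicle replicate 2 just passed fluoxetine replicate 2. It differed by 0.31 ± 0.15 (SE), a fold of 1.24, with an unadjusted p of 0.0800 and an adjusted p of 0.999 in limma, and by 0.18 without vehicle replicate 3. The difference was 0.39 under quantile normalization, 0.38 under the median shift and 0.45 without vehicle replicate 2. Their unadjusted p-values in limma were 0.0179, 0.0236 and 0.0229, and none passed after adjustment. The other tested probe sets differed by 0.20 ± 0.16 and 0.04 ± 0.22 (SE). The first of these was 0.36 without vehicle replicate 1 (unadjusted p = 0.0288, adjusted p = 1 in limma) and 0.10 without vehicle replicate 2. The 4 probe sets correlated with each other over the 6 arrays at 0.296 to 0.851, and they share the same RNA, so they are not separate evidence. The difference of the first 3 stayed above 0 in all 16 fits, and the fourth turned below 0 in 4 of them. Fits with another filter, the replicate block or the trend and robust variance could not turn any of the 4.

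**Figure D2:**
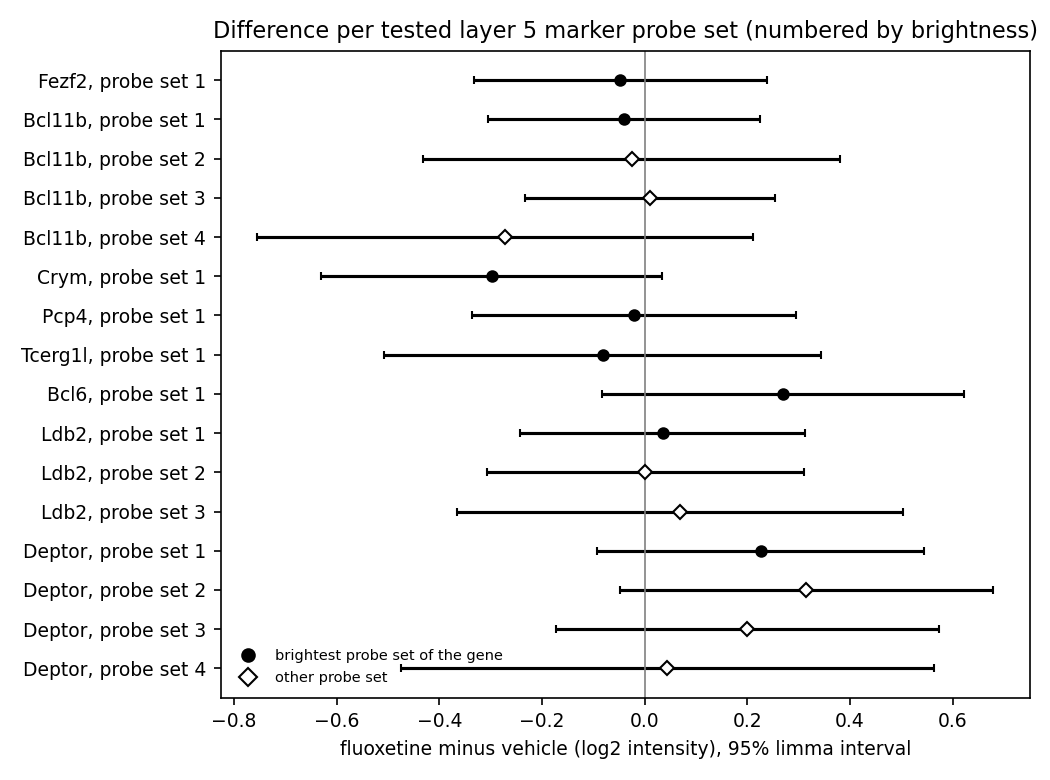
Difference in log2 intensity, fluoxetine minus vehicle (horizontal axis), for each of the 16 tested layer 5 marker probe sets, with the 95% interval from limma. Probe sets of a gene are numbered from the brightest. Filled circles are the brightest probe set of a gene and open diamonds the others. Every interval includes 0, and the bounds reach from −0.75 to 0.68.

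All 16 intervals included 0, and the standard errors ran from 0.10 to 0.22 in log2. The data therefore leave room for a change of Crym down to −0.63 and of the second Deptor probe set up to 0.68, which they do not resolve. Across the 6 arrays the genes went different ways. On fluoxetine replicate 1, Fezf2, Bcl11b, Crym, Pcp4 and Tcerg1l were at their lowest and Bcl6 and Deptor at their highest. Of the 16 tested probe sets, 6 were lowest and 4 highest on that array, beside 18.5% and 24.1% of all tested probe sets. Pearson correlations between genes, over 6 arrays that share one normalization, ran from −0.924 for Fezf2 with Ldb2 to 0.884 for Fezf2 with Pcp4. Averaged over the 8 genes, the deviation from the 6-array mean was −0.08, 0.07 and 0.02 with fluoxetine and 0.04, −0.04 and −0.02 with vehicle.

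**Figure D3:**
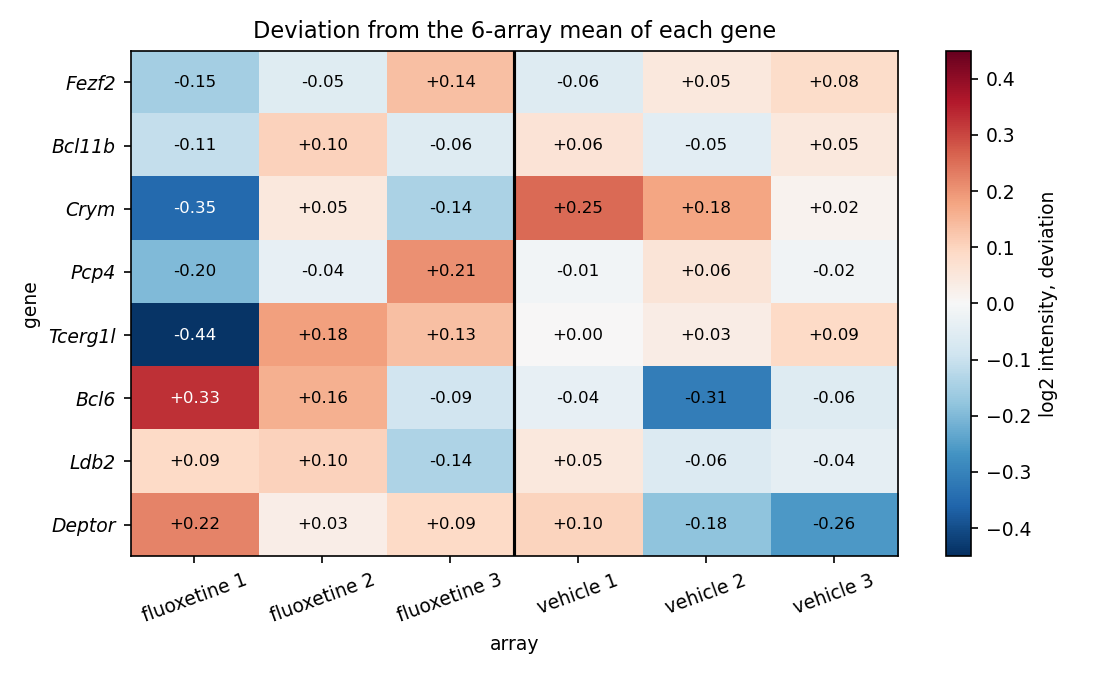
Deviation of log2 intensity from the mean over the 6 arrays (colour and printed values), for the brightest probe set of each of the 8 genes (rows) on each array (columns, fluoxetine left of the black line and vehicle right). Fluoxetine replicate 1 carries the lowest value of 5 genes and the highest of 2.

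The striatal, astrocyte, further layer 5 and layer 6 lists had their highest mean on fluoxetine replicate 1. The layer 5 markers (11.00), the upper-layer list (10.51) and the vessel list (8.54 in log2 intensity) had their lowest there. The remaining lists had other extreme arrays. The oligodendrocyte and inhibitory neuron lists were lowest on fluoxetine replicate 2 (9.93 and 9.71), and the microglial list was highest on fluoxetine replicate 3 (8.31). Averaged over 4 striatal genes above the level of 50, the arrays measured 9.27, 8.30 and 8.74 with fluoxetine and 8.50, 8.31 and 8.46 with vehicle in log2 intensity. The striatal enkephalin gene Penk read 11.50, 9.74 and 9.86 with fluoxetine and 9.59, 9.23 and 9.72 with vehicle, and Ppp1r1b, which encodes DARPP-32, read 10.52, 9.26 and 9.72 with fluoxetine and 9.41, 9.20 and 9.36 with vehicle. Of the 4, 3 lay above 0 in the comparison, and the dopamine receptor gene Drd2 was below the level of 50 over all arrays. Averaged over 8 astrocyte genes, the arrays measured 11.59, 9.98 and 11.05 with fluoxetine and 10.18, 10.36 and 10.32 with vehicle, 5 of the 8 lying above 0. Without Gfap, which passed the filter only through its fluoxetine values, the means of the other 7 were 11.52, 10.77 and 11.34 with fluoxetine and 10.97, 11.09 and 10.99 with vehicle, and their range over arrays was 0.748, beside 1.61 with Gfap. Of these 7, 4 lay above 0. Gfap, the astrocyte intermediate filament gene, spanned 12.13, 4.49 and 9.02 with fluoxetine and 4.70, 5.24 and 5.67 with vehicle. Crym, Bcl11b and Pcp4 are also known from striatal neurons, and the part of striatal or astrocyte RNA in their values was not tested.

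**Figure D4:**
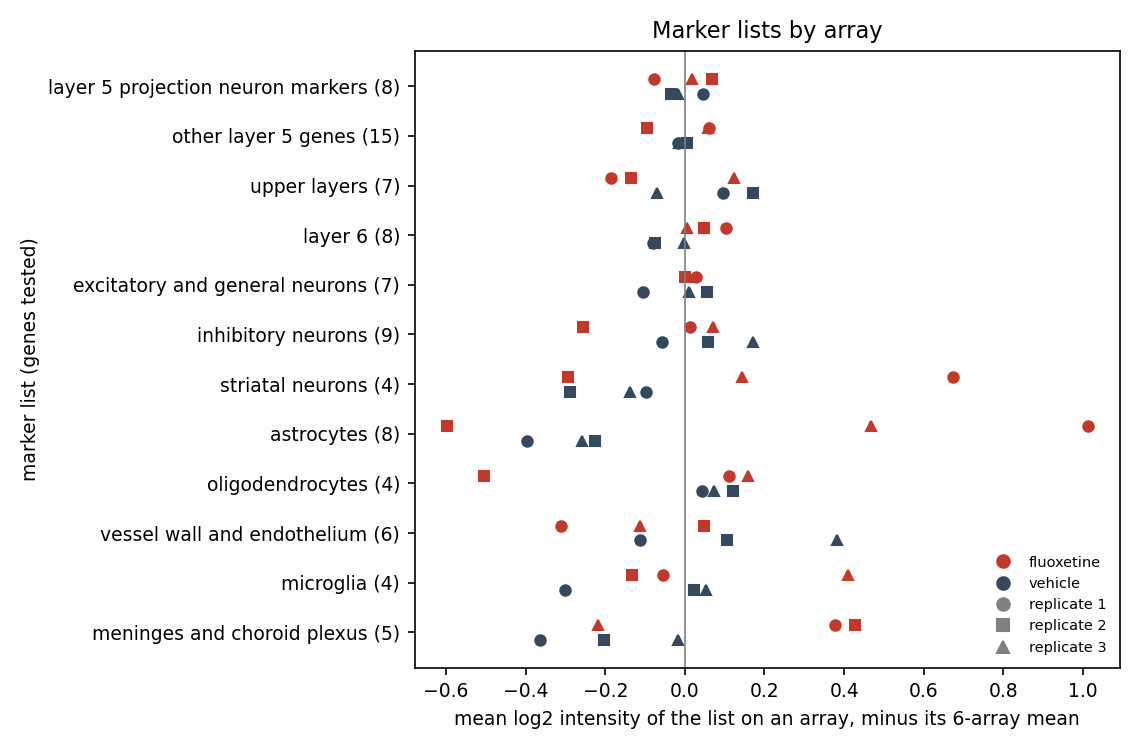
Mean log2 intensity of each marker list on an array, minus its mean over the 6 arrays (horizontal axis), with fluoxetine in red above vehicle in grey for each list (number of tested genes in brackets). The layer 5 markers run from −0.08 to 0.07 about their mean, as an average over genes that went different ways. The general neuronal list is about as narrow, with means of 12.39 to 12.55 in log2 intensity, and the upper-layer list is wider (10.51 to 10.87). From lowest to highest array, the striatal list ranges over 0.966 and the astrocyte list over 1.61, or 0.748 without Gfap. Fluoxetine replicate 1 is highest in the striatal, astrocyte, further layer 5 and layer 6 lists, and lowest in the layer 5 marker, upper-layer and vessel lists.

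Other genes of the cortical layers were read from the same fit. Of 15 further layer 5 genes tested, 7 lay above 0 and 8 below, with a median of −0.01 in log2, and 0 passed at an adjusted p under 0.05 or had an unadjusted p under 0.05 in limma. With quantile normalization and with the median shift, 11 of the 15 lay above 0 (medians 0.05 and 0.05), and the median was 0.04 without fluoxetine replicate 1, 0.06 without vehicle replicate 1 and 0.04 without fluoxetine replicate 2. The smallest p-values in that list belonged to Sox5, a transcription factor of deep-layer neurons (0.29 ± 0.18, SE), and Crim1, a transmembrane gene of corticospinal neurons (−0.24 ± 0.16). Upper-layer genes had 3 above and 4 below 0 (median −0.12), with Rspo1 at −0.74 ± 0.48 and Calb1, the calcium buffer calbindin, at −0.14 ± 0.12. Rspo1 read 5.55 on fluoxetine replicate 1 and 7.29 to 7.68 on the other arrays. Layer 6 genes had 5 above and 3 below 0 (median 0.04). Among them Cplx3, a complexin of the deepest cortical cells, differed by 0.41 ± 0.25. The orphan nuclear receptor gene Nr4a2, which neuronal activity also induces, read 11.21, 11.11 and 11.10 with fluoxetine and 11.38, 11.61 and 11.41 with vehicle, without overlap, at an unadjusted p of 0.0248 and an adjusted p of 0.999 in limma. Of all tested probe sets, 8.05% did not overlap and 2.52% had an unadjusted p under 0.05 in limma, whereas Nr4a2 was picked by its small p-value. General neuronal genes had 2 above and 5 below 0 (median −0.05), with Slc17a7 at 0.45 ± 0.35 and the transcription factor gene Neurod2 at −0.13 ± 0.13. Their median was 0.0070 under quantile normalization and 0.01 with the median shift, so its sign was not fixed, while the upper-layer and layer 6 medians kept theirs. Without fluoxetine replicate 2 the general neuronal median was 0.02, and without vehicle replicate 2 the upper-layer median was 0.00090.

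The other lists of non-layer-5 cells were likewise described by counts. Inhibitory neuron genes had 3 above and 6 below 0 (median −0.14), with Vip at −0.39 ± 0.10 and Pvalb at −0.32 ± 0.20 (SE). Oligodendrocyte genes had 0 above and 4 below 0 (median −0.18), with the myelin genes Cnp at −0.21 ± 0.20 and Mbp at −0.19 ± 0.21, and Mog below the level of 50. Without fluoxetine replicate 2, 3 of these 4 lay above 0 (median 0.03), with Cnp at 0.03 and Mbp at 0.03. Vessel genes had 1 above and 5 below 0 (median −0.24), with Vtn at −0.41 ± 0.15 and Acta2 at −0.59 ± 0.32. Microglial genes had 4 above and 0 below 0 (median 0.15), with C1qa at 0.24 ± 0.24 and Cx3cr1 at 0.21 ± 0.25, while Aif1 and Itgam were below the level of 50. Genes of the meninges and choroid plexus had 4 above and 1 below 0 (median 0.48), with Col1a1 at 0.75 ± 0.24 and Igf2 at −0.45 ± 0.16. Sox9 of the astrocyte list differed by 0.58 ± 0.11. Unadjusted p-values in limma were 0.00109 for Sox9, 0.00632 for Vip, 0.0172 for Col1a1, 0.0268 for Igf2 and 0.0298 for Vtn. In each of them the groups did not overlap, as in 8.05% of all tested probe sets. These genes were picked by their small p-values, so that share is not a like comparison. In the whole meninges and choroid plexus list, 2 genes above 0 and 1 below did not overlap. In the striatal list, 1 gene above 0, Penk, did not overlap. Under both scalings the medians of these lists, and of the striatal and astrocyte lists, kept their sign. Single arrays turned some of them: the inhibitory median was 0.05 without fluoxetine replicate 2, the microglial one −0.02 without fluoxetine replicate 3 and the astrocyte one −0.03 without fluoxetine replicate 1. None of these genes had an adjusted p under 0.05 in limma.

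The genes whose pattern over the 6 arrays was closest to the mean layer 5 profile were Syndig1l, Fanci, Nxph2, Prkcd and Tbxa2r, with Pearson correlations of 0.988, 0.971, 0.960, 0.956 and 0.947. They were the highest among the tested genes, the 8 themselves left out, and a correlation over 6 arrays is coarse. The mean layer 5 profile ran only from −0.08 to 0.07 in log2. It averages genes that went different ways, so it is not a pattern that the 8 share. Tbxa2r itself ran only from 7.27 to 7.38 in log2 intensity. Syndig1l read 6.36, 6.79 and 6.65 with fluoxetine and 6.67, 6.49 and 6.52 with vehicle in log2 intensity, which follows the layer 5 mean in being lowest on fluoxetine replicate 1 and highest on fluoxetine replicate 2.

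The promoters of 5 of the 8 genes, Fezf2, Bcl11b, Pcp4, Tcerg1l and Bcl6, were in the RefSeq promoter table (GRCm38.p6), and Crym, Ldb2 and Deptor were not matched. Over the 250 bases before the start, the ratio of observed to expected CpG was lowest for Pcp4 (0.220) and highest for the first start of Bcl6 (0.987), with a median of 0.373 over 32851 windows. GC content ran from 44.8% for Bcl11b to 69.6% for Tcerg1l, beside a median of 52.4%. It was 46.8% for Pcp4 and 58.4% for the first start of Bcl6. Both strands were searched for the E-box CACGTG, the half-site TGACG of the cyclic AMP response element and the TATA box TATAAA. The 2 windows at the ends of that CpG range are shown from 5′ to 3′ on the gene's strand, with motif matches in capitals.
Bcl6, chr16:23988853-23989102, minus strand: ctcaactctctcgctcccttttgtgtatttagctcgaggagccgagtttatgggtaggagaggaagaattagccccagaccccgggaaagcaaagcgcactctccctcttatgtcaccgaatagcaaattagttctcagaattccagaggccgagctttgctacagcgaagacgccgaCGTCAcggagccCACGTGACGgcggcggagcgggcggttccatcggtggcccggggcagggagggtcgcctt
Pcp4, chr16:96467356-96467605, plus strand: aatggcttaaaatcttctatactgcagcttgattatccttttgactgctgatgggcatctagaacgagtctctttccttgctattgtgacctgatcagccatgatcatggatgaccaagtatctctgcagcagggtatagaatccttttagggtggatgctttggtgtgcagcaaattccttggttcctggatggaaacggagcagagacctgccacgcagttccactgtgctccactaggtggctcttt

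The Bcl6 window held 1 CACGTG and 2 TGACG matches, 1 of which overlaps the CACGTG, and the Pcp4 window held none of the 3 motifs. Among all windows of that length, 6.02% held CACGTG, 17.8% held TGACG and 12.4% held TATAAA. These letters describe the sequence only, since the arrays measured RNA and no binding.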

How the data were processed

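TRAP RNA of 6 samples (15 ng each, two-cycle amplification, per the labels' protocols) was hybridised to single-colour Affymetrix arrays. The authors deposited linear intensity values, with GCRMA as the normalization per the submitters' processing notes (no version named there). GCRMA models background from probe sequence, so dim probe sets sit near a floor. Scaling between arrays can hide a change common to most genes. The deposited arrays were not fully aligned, however. Their upper quartiles ran from 498 to 574 in intensity and their medians over tested probe sets from 8.99 to 9.20 in log2. Scanner files and the probe set selection that the submitters recommend were not used here.

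Of 45101 probe sets, 64 were controls. The platform annotation named 34945 with 1 symbol, 932 with several and 9160 with none, and only the first kind were named. Log2 values (no offset) of the 22326 probe sets (49.6%) at a geometric mean of 50 or more were fitted with limma 3.58.1 (R 4.3.3, two-sided, eBayes) and p-values adjusted by Benjamini-Hochberg over all of them, with a threshold of 0.05. The fit was first tested on simulated data. Each gene stands by its brightest tested probe set. Exact permutation of 3 against 3 arrays cannot give a p below 0.1, so none is printed.

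Named genes were all members, S100a10, the 2 genes of each other list with the smallest unadjusted p, and the 5 nearest in array profile. Drd2, Diaph3, Chrna2, Mog, Aif1 and Itgam, below the level of 50, were named after their values were seen. Members and lists were chosen with earlier results of these data known. Alternatives were no filter, a minimum of 100, a mean of at least 50 in both groups, an offset of 16, quantile normalization, a median shift, the replicate block, trend and robust variance, array weights, a gene's mean over probe sets, removal of probe sets with shared targets, a threshold of 0.10, and omission of each array. Arrays of the same number did not deviate together (correlations of −0.253, −0.0275 and −0.502), so the numbers were not taken as pairs.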

Additional observations from a re-analysis of the deposited data

How the results depend on the processing

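No layer 5 marker probe set passed at an adjusted p of 0.05 in any of the 16 fits, or at 0.10 in the reported fit (limma). The count stayed at 0 with the replicate number as a block and without each array in turn, and 0 to 2 members had an unadjusted p under 0.05. Under quantile normalization and under the median shift, 2 genes lay below 0 and 6 above, and the gene median was 0.0365 and 0.0300. Leaving out each array gave 2 to 6 genes in either direction, with 2 below and 6 above 0 without fluoxetine replicate 1, and medians of −0.0744 to 0.0458. At a level of 100, 15 probe sets passed.

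Of 239 alternative values of single probe sets, 206 kept their direction. The other filters, the replicate block and the trend and robust variance leave the log2 difference unchanged, so their values could not turn. Under quantile normalization and the median shift, Fezf2 gave 0.0292 and 0.0133, Pcp4 0.0254 and 0.0398, the brightest Bcl11b probe set 0.0437 and 0.0203, and the second 0.0324 and 0.0349. With array weights, Fezf2 gave 0.0149, the second Bcl11b probe set 0.0828, Pcp4 0.0474, the brightest and dimmest Ldb2 probe sets −0.0212 and −0.0468, and the dimmest tested Deptor probe set −0.105. Leaving out each array gave −0.127 to 0.0173 for Fezf2, −0.103 to 0.0039, −0.159 to 0.110, −0.0256 to 0.0305 and −0.491 to −0.144 for Bcl11b from brightest to dimmest, −0.129 to 0.0743 for Pcp4, and −0.194 to 0.119 for Tcerg1l. It gave −0.0076 to 0.114, −0.0749 to 0.0704 and −0.0257 to 0.246 for Ldb2 from brightest to dimmest, and −0.163 to 0.207 for the dimmest tested Deptor probe set. The astrocyte means without Gfap, and the other lists without each array, were added after seeing the data. The cause was not tested. The number of arrays limits what can be told apart near 0.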
